A study of Mus musculus with 6 samples.

Results

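The 38 genes described here supply GDP-mannose and UDP-GlcNAc, build the N-glycan on its dolichol carrier, transfer it to proteins and trim it afterwards. They were found by symbol in a table of RNA-seq counts per gene, where all 38 of 38 were among the 21878 genes listed. The thyroid glands came from female mice aged 12 weeks. Of the 6 libraries, 3 were labelled *Thy-Tet1*+/+ (WT in the genotype field, littermate controls). The other 3 were labelled *Thy-Tet1*-/- (TET1 KO), a thyroid-specific deletion made from *Tet1* flox/+ mice with a Cre that acts in follicular epithelial cells and not in the other cells of the gland. The genes were selected on their place in the pathway with the log2 fold changes between these groups already known, those of *Gmppb* included. The differences between groups within the 38 genes are therefore a description. The unadjusted p in the limits used below sorts these genes and is not read as a test of them. The alternative settings reuse the same 6 libraries.

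N-glycosylation is a modification of nearly every protein that passes through the secretory pathway. A branched sugar of N-acetylglucosamine, mannose and glucose is assembled step by step on dolichol, a lipid of the endoplasmic reticulum (ER) membrane. The oligosaccharyltransferase moves it as a block onto asparagine residues of the growing protein, after which glucosidases and mannosidases trim it while folding is checked, and Golgi enzymes rebuild its branches. Mannose enters as GDP-mannose on the cytosolic face of the membrane and as dolichol-phosphate mannose on the lumenal face. In the thyroid, thyroglobulin, the iodide transporter and the TSH receptor are N-glycosylated proteins, so follicular cells make heavy use of the pathway.

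Library totals ranged from 8867683 counts, in *Thy-Tet1*+/+ replicate 1, to 19950898. *Tet1*, the targeted gene, had 48, 71 and 62 counts in *Thy-Tet1*+/+ and 172, 162 and 241 counts in those labelled *Thy-Tet1*-/-. The transcript counts thus went against the label (log2 fold change 1.28, SE 0.27, adjusted p = 0.101, edgeR quasi-likelihood with Benjamini-Hochberg), and every direction given here is that between libraries so labelled. Counts were per gene, so that reads from the deleted part were not seen separately. Thyroglobulin alone took 21.2% to 29.4% of the counts of a library. The 10 follicular cell markers were all detected and went both ways, with log2 fold changes above 0 for 5 and below 0 for 5. *Tshr*, the TSH receptor, was lowest at -2.16, and *Iyd* (-0.63) and *Tg* (-0.43), the thyroglobulin gene, were also lower, all 3 without overlap. *Pax8* (0.42) and *Nkx2-1* (0.65), thyroid transcription factors, were higher without overlap. The mean log2 CPM of the 10 (CPM, counts relative to the scaled library total, with 0.25 added) was lower by 0.20 in the libraries labelled *Thy-Tet1*-/- (exact permutation test, two-sided, p = 0.10 and 0.55 after adjustment over 11 marker lists; 3 against 3 libraries allow no lower p than 0.10). Without *Tshr* the difference was 0.012 and the groups overlapped. *Thy-Tet1*+/+ replicate 2 stood apart in parathyroid markers, with a summed level of 192 CPM against 7949 to 31340 CPM in the other libraries. Skeletal muscle markers summed to 6816, 827 and 4191 CPM in *Thy-Tet1*+/+ and to 117, 7477 and 41.3 CPM in the libraries labelled *Thy-Tet1*-/-. Adipocyte markers summed to 486, 206 and 152 CPM against 1612, 728 and 354 CPM, and T cell markers to 406 CPM in the library labelled *Thy-Tet1*-/- replicate 3 against 2.19 to 112 CPM elsewhere. The part of these other cells in the values that follow was not tested. These glands were sequenced whole, and fewer cells of a type cannot be told apart from less RNA per cell.

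All 38 genes passed the filter on low counts. The log2 fold change (libraries labelled *Thy-Tet1*-/- against *Thy-Tet1*+/+) was below 0 for 32 and above 0 for 6, where 49.9% of all 14143 tested genes lay below 0 and 50.1% above. The median was -0.30 over the 38 genes and 0.00063 over all tested genes. A gene was counted as past the limits when it differed by over 1.5-fold, up or down, and its unadjusted p was under 0.05, which held for 9.2% of all tested genes (3.66% lower, 5.54% higher). In the list, 4 genes were past the limits, all lower: *Gmppb*, *Pgm3*, *Alg2* and *Mgat2*. For 17 of the 38 genes the groups did not overlap, all lower, against 14.3% of all tested genes lower and 12.5% higher without overlap. The plot of log2 fold changes by role shows that the 4 genes belong to different steps, and that the 6 oligosaccharyltransferase genes of the list are all below 0.

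**Figure D1:**
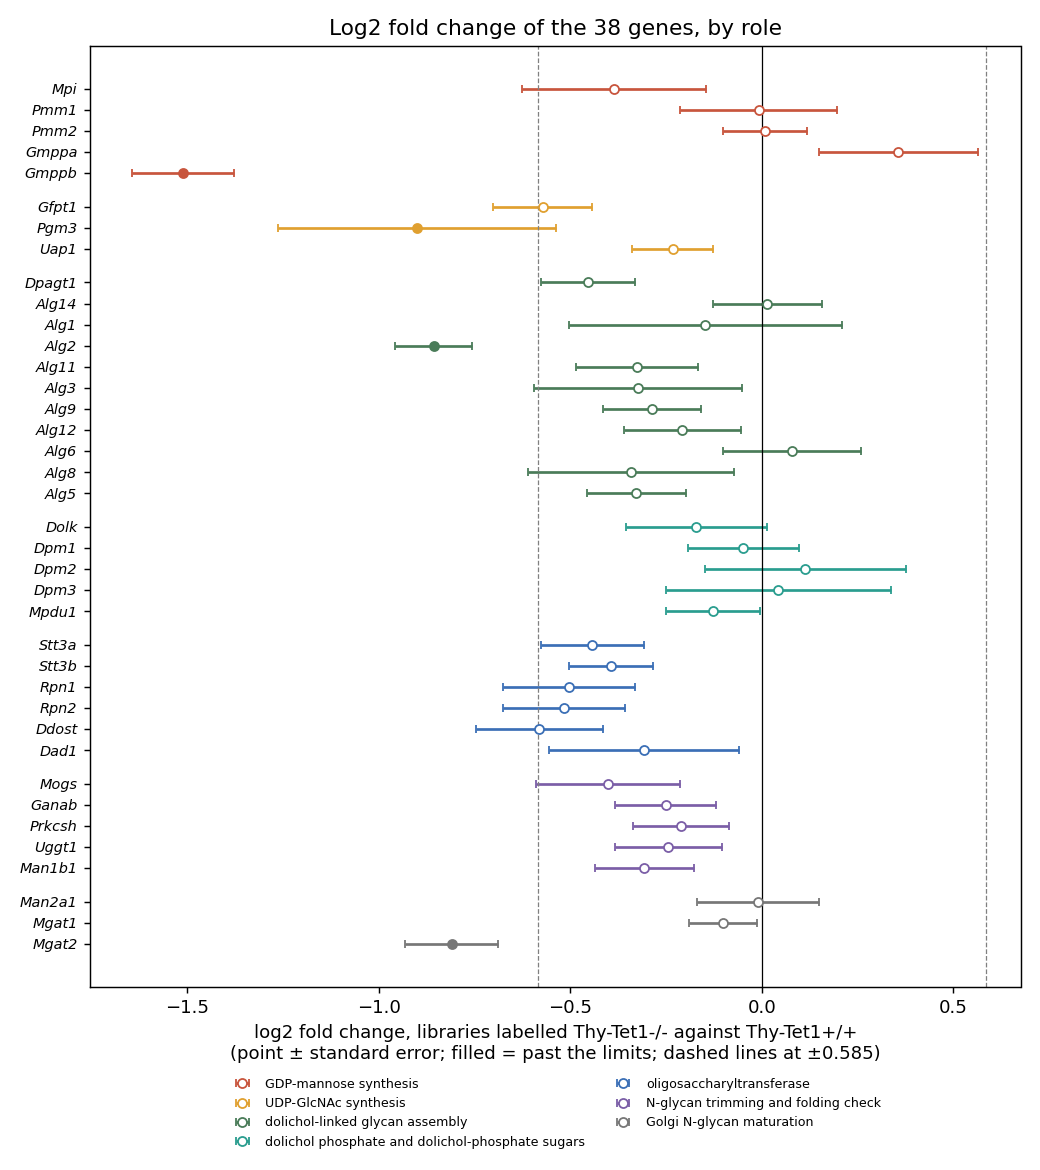
Log2 fold change of each of the 38 genes (x axis, libraries labelled Thy-Tet1-/- against Thy-Tet1+/+, point ± standard error, 3 libraries per group), coloured by role. Filled points are the 4 genes past the limits and dashed lines mark 1.5-fold in either direction. Gmppb lies farthest from 0, at -1.51, and Gmppa, its partner subunit, is the highest point, at 0.36.

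GDP-mannose is made from fructose phosphate by a chain of isomerase, mutase and pyrophosphorylase. *Gmppb* (NCBI gene 331026) encodes the catalytic subunit of GDP-mannose pyrophosphorylase, which joins mannose phosphate to GTP. It lies on chromosome 9, chr9:108049242-108052801 of GRCm38, on the plus strand. It had 425, 795 and 965 counts in *Thy-Tet1*+/+ and 297, 286 and 359 counts in those labelled *Thy-Tet1*-/-. This was 50.4, 42.5 and 53.5 CPM against 16.2, 16.9 and 18.2 CPM. The lowest *Thy-Tet1*+/+ library was above the highest library of the other group, and the means were 48.8 ± 5.68 CPM and 17.1 ± 1.04 CPM (SD, n = 3 each). The log2 fold change was -1.51 (SE 0.13), and it stayed between -1.60 and -1.30 and past the limits under all 16 alternative settings and omissions of a library.

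*Gmppa* encodes the regulatory subunit of the same enzyme, which senses GDP-mannose and restrains the catalytic subunit. Its level was 37.8, 51.5 and 67.2 CPM in *Thy-Tet1*+/+ and 70.7, 60.8 and 69.4 CPM in the libraries labelled *Thy-Tet1*-/-. The groups overlapped, and the log2 fold change was 0.36 (SE 0.21). Set against each other within a library, where the scaling cancels, *Gmppb* had 0.834, 0.517 and 0.499 times the *Gmppa* counts per kilobase of transcript in *Thy-Tet1*+/+ and 0.143, 0.174 and 0.165 times in the libraries labelled *Thy-Tet1*-/-. The groups did not overlap in this ratio, whose size depends on the transcript lengths chosen.

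The exons of *Gmppb* overlap those of *Rnf123*, a ubiquitin ligase gene on the opposite strand, over 937 bp in the GENCODE M21 annotation, which is 33.6% of the exonic length of *Gmppb*. Whether counting used strand is not given in the sources used here, and part of the counts of either gene is therefore uncertain. *Rnf123* had 40.3, 44.3 and 47.4 CPM in *Thy-Tet1*+/+ and 52.5, 55.5 and 56.7 CPM in the libraries labelled *Thy-Tet1*-/-. It was higher where *Gmppb* was lower, without overlap of the groups, but did not pass the test (log2 fold change 0.32, SE 0.11, edgeR adjusted p = 0.190, and 0.105 to 0.492 across alternatives). An unlisted transcript, *Gm20529*, also overlaps *Gmppb*, on the same strand over 111 bp.

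**Figure D2:**
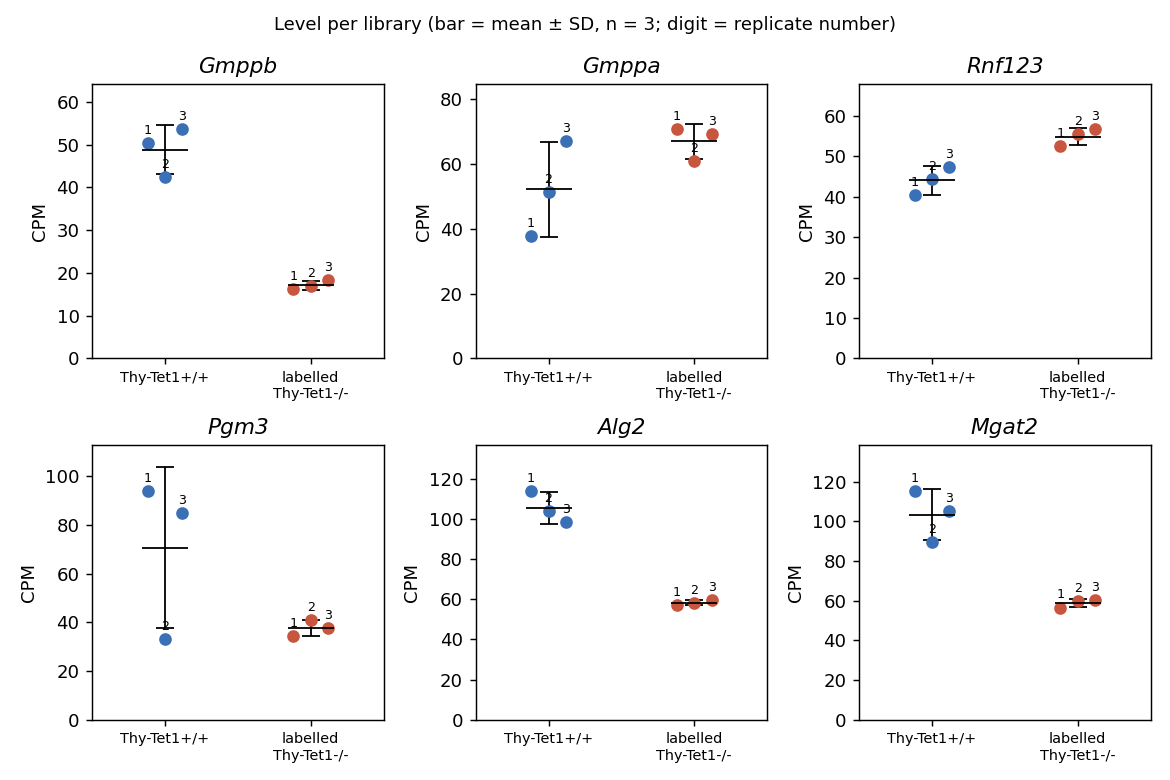
CPM (y axes, from 0) in each of the 6 libraries for Gmppb, its partner subunit Gmppa, Rnf123, which overlaps Gmppb on the opposite strand, and the other 3 genes past the limits. Points are libraries with their replicate number, and the bars give mean ± SD (n = 3). Gmppb, Alg2 and Mgat2 do not overlap between the groups, while Pgm3 is high in Thy-Tet1+/+ replicates 1 and 3 only.

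The enzymes ahead of *Gmppb* differed less. *Mpi*, the isomerase that makes mannose phosphate, had 23.5, 14.4 and 16.1 CPM in *Thy-Tet1*+/+ and 15.0, 15.3 and 10.9 CPM in the libraries labelled *Thy-Tet1*-/-, with overlap. *Pmm1* and *Pmm2* are phosphomannomutases that move the phosphate to the position used by the pyrophosphorylase, and *Pmm2* is the main one of human glycosylation disease. *Pmm1* had 38.6, 36.8 and 27.9 CPM against 42.7, 32.5 and 27.4 CPM. *Pmm2* had 32.6, 33.7 and 37.8 CPM against 33.7, 35.5 and 35.6 CPM. For both mutases the groups overlapped almost wholly, with log2 fold changes of -0.01 (SE 0.20) and 0.01 (SE 0.11) whose sign turned under some alternatives.

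The hexosamine branch makes UDP-GlcNAc, the donor of the sugars at the base of the glycan and of its Golgi branches. *Gfpt1*, the rate-limiting amidotransferase, had 325, 284 and 361 CPM in *Thy-Tet1*+/+ and 218, 225 and 210 CPM in the libraries labelled *Thy-Tet1*-/-. The groups did not overlap, and its log2 fold change of -0.57 (SE 0.13) lay just short of the 1.5-fold limit. *Pgm3*, the mutase of the branch, had 94.0, 33 and 85 CPM in *Thy-Tet1*+/+ and 34.4, 41.1 and 37.9 CPM in the libraries labelled *Thy-Tet1*-/-. It was past the limits with a log2 fold change of -0.90 (SE 0.36), although *Thy-Tet1*+/+ replicate 2 lay below all 3 libraries of the other group. Its value was -1.24 without that library, and it was past the limits in 7 of 16 alternatives. The exons of *Pgm3* overlap those of *Dop1a* on the opposite strand over 1270 bp. *Uap1*, the pyrophosphorylase that completes UDP-GlcNAc, had 57.8, 65.3 and 69.6 CPM against 54.6, 54.4 and 55.1 CPM, lower without overlap by 0.23 on the log2 scale (SE 0.11).

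Assembly on dolichol begins on the cytosolic face. *Dpagt1*, which places the sugar phosphate that starts the glycan and is the target of tunicamycin, had 49.4, 39.7 and 49.3 CPM in *Thy-Tet1*+/+ and 33, 33.8 and 34.1 CPM in the libraries labelled *Thy-Tet1*-/- (log2 fold change -0.45, SE 0.12, no overlap). *Alg14*, the membrane anchor of the enzyme that follows, ran from 24.6 to 31.3 CPM over the 6 libraries with overlapping groups. The cytosolic mannosyltransferases *Alg1*, *Alg2* and *Alg11* draw directly on GDP-mannose. *Alg2* had 114, 104 and 98.5 CPM in *Thy-Tet1*+/+ and 56.9, 58.3 and 59.3 CPM in the libraries labelled *Thy-Tet1*-/-. All *Thy-Tet1*+/+ libraries were well above the others, and the log2 fold change was -0.86 (SE 0.10), past the limits in 16 of 16 alternatives. *Alg1* had 14.4, 20.3 and 37.5 CPM against 27.4, 19.0 and 19.1 CPM, the widest relative spread within *Thy-Tet1*+/+ among these transferases, and its sign turned to 0.33 without *Thy-Tet1*+/+ replicate 3. Part of the *Alg1* counts is uncertain, since its exons overlap *Eef2kmt* on the opposite strand over 472 bp. *Alg11* had 27.3, 20.3 and 20.9 CPM against 16.7, 19.0 and 18.8 CPM, lower without overlap. Of these 3 transferases, *Alg2* was thus past the limits and *Alg1* and *Alg11* were not.

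On the lumenal face, mannose and glucose come from dolichol-phosphate sugars. The mannosyltransferases *Alg3*, *Alg9* and *Alg12* had log2 fold changes of -0.32 (SE 0.27), -0.29 (SE 0.13) and -0.21 (SE 0.15). *Alg9* was the one of them without overlap, with 21.1 to 25.1 CPM in *Thy-Tet1*+/+ against 18.2 to 19.0 CPM, and *Alg9* shares 500 bp of exon with *1110032A03Rik* on the opposite strand. The glucosyltransferases *Alg6* and *Alg8*, at 8.24 to 9.50 CPM and 5.87 to 11.4 CPM over all libraries, were among the least abundant of the 38 genes and overlapped between the groups. *Alg5*, which makes dolichol-phosphate glucose, had 44.5, 46.6 and 53.7 CPM against 41.1, 40.4 and 33.9 CPM (log2 fold change -0.33, SE 0.13, no overlap). In all, 9 of the 11 assembly genes were lower, with a median log2 fold change of -0.32.

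The genes for the dolichol-phosphate carriers lay close to 0. *Dpm1*, the catalytic subunit of dolichol-phosphate mannose synthase, had 34.5, 41.3 and 46.7 CPM in *Thy-Tet1*+/+ and 43.0, 39.8 and 36.0 CPM in the libraries labelled *Thy-Tet1*-/-. Its small membrane partners *Dpm2* and *Dpm3* had 16.5, 28.3 and 34.7 CPM against 31.2, 25.8 and 29.4 CPM, and 11.4, 22.4 and 25.9 CPM against 18.7 to 23.1 CPM. In both partners *Thy-Tet1*+/+ replicate 1 was the lowest library and the groups overlapped. Together with *Dolk*, the kinase that makes dolichol phosphate, and *Mpdu1*, which is needed to use the dolichol-phosphate sugars, the 5 genes had log2 fold changes between -0.17 and 0.11, a median of -0.05 and no groups without overlap.

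*Dpm2* and *Dpm3*, low in *Thy-Tet1*+/+ replicate 1, the shallowest library, have short transcripts (869 and 827 bp). Length and level did not always go together in that library. There *Pmm1* (1300 bp) had the highest value of its group, 38.6 CPM, and *Dad1* (3491 bp) the lowest, 85.5 CPM. Over the 38 genes, transcript length correlated with the deviation of that library from the gene's mean (Spearman's rho 0.47 across genes, and 0.30 over 13706 tested genes of known length, which share the library and are not independent replicates). For *Thy-Tet1*+/+ replicates 2 and 3 the same rho was -0.08 and -0.09 over the 38 genes, and -0.06 and -0.22 over all. Replicates 1, 2 and 3 of the group labelled *Thy-Tet1*-/- had -0.47, -0.39 and -0.05 over the 38 genes. Their values over all were -0.18, 0.013 and 0.047, so values below 0 occurred in both groups. The part of transcript length in the group differences was not tested.

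All 6 oligosaccharyltransferase genes of the list were lower, while of 6 further subunits outside it 4 were below 0 and 2 above. *Stt3a* and *Stt3b* encode the alternative catalytic subunits, which act during and after synthesis of the protein. *Stt3a* had 308, 245 and 315 CPM in *Thy-Tet1*+/+ and 219, 209 and 210 CPM in the libraries labelled *Thy-Tet1*-/-. *Stt3b* had 338, 356 and 341 CPM against 273, 247 and 267 CPM. Both were lower without overlap, with log2 fold changes of -0.44 (SE 0.13) and -0.39 (SE 0.11). The counts per kilobase of *Stt3a* were 0.605 ± 0.096 times those of *Stt3b* in *Thy-Tet1*+/+ and 0.584 ± 0.023 times in the libraries labelled *Thy-Tet1*-/- (SD, n = 3 each), so the balance of the catalytic subunits overlapped between the groups.

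Of the shared subunits, *Ddost*, *Rpn1* and *Rpn2* were the most abundant of the 38 genes. *Ddost* had the highest level of all, at 154 CPM per kilobase of transcript over the 6 libraries, followed by *Rpn2* at 140 and *Rpn1* at 125, while *Alg6* had the lowest, at 2.89. *Ddost* had 428, 314 and 431 CPM in *Thy-Tet1*+/+ and 279, 274 and 232 CPM in the libraries labelled *Thy-Tet1*-/- (log2 fold change -0.58, SE 0.17). *Rpn1* had 592, 416 and 588 CPM against 403, 378 and 344 CPM. *Rpn2* had 517, 379 and 470 CPM against 346, 326 and 284 CPM. In each of these subunits *Thy-Tet1*+/+ replicate 2 was the lowest of its group but still above every library labelled *Thy-Tet1*-/-. *Dad1* had 85.5, 152 and 164 CPM against 116, 114 and 94.3 CPM and was the subunit whose groups overlapped, again with a low value in *Thy-Tet1*+/+ replicate 1. The 6 subunits summed to 2269, 1862 and 2309 CPM against 1637, 1548 and 1432 CPM. None was past the limits, since their log2 fold changes lay between -0.58 and -0.31. Without *Thy-Tet1*+/+ replicate 2, *Ddost*, *Rpn1*, *Rpn2* and *Gfpt1* also came past the limits, which raised the count in the list from 4 to 8. Leaving out replicate 1 of the group labelled *Thy-Tet1*-/- brought *Ddost*, *Gfpt1* and *Rpn2* past them, and leaving out its replicate 2 *Ddost* and *Gfpt1*. Of all tested genes, 9.04%, 7.48% and 10.4% were past the limits in these fits, in that order, against 9.2% with all libraries.

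**Figure D3:**
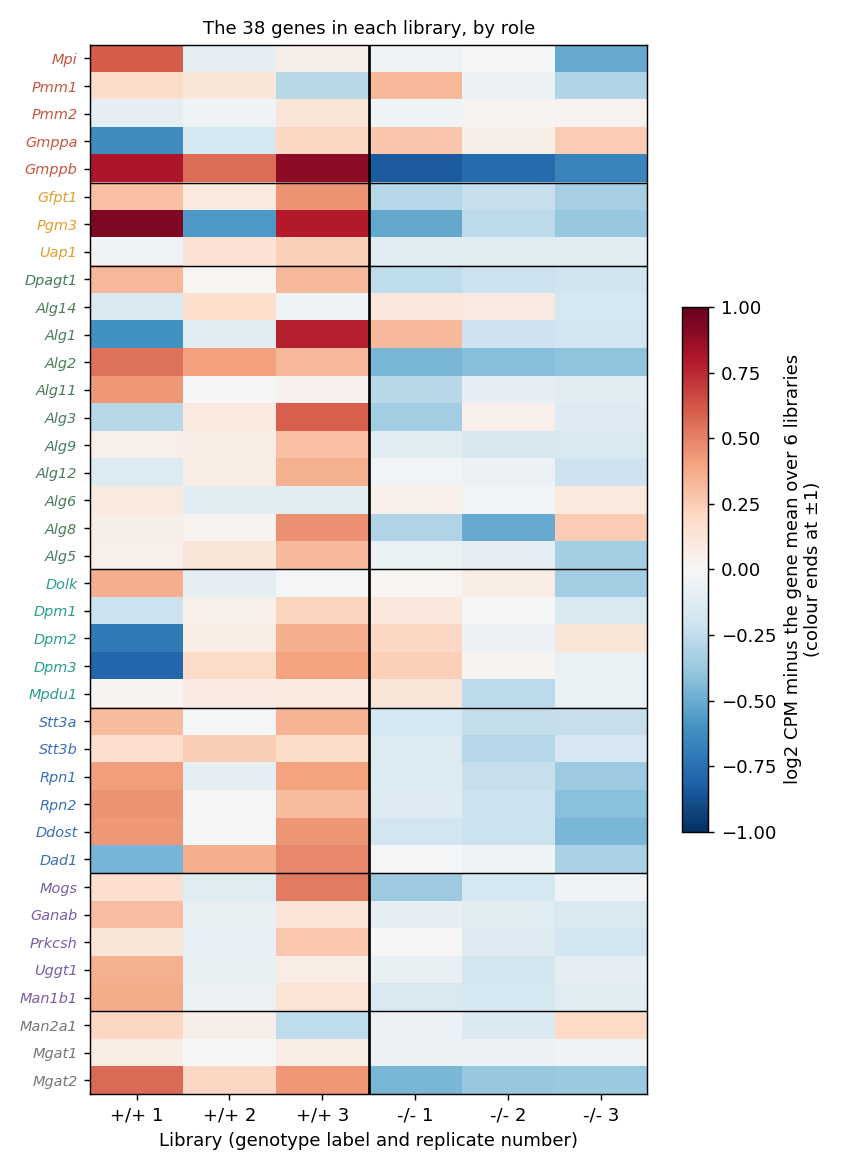
Log2 CPM of each of the 38 genes (rows, names coloured by role, black lines between roles) in each library (columns) minus the gene's mean over the 6 libraries; red is above and blue below that mean. Thy-Tet1+/+ replicates 1 and 3 are mostly red, replicate 2 is paler, and the 3 libraries labelled Thy-Tet1-/- are mostly pale blue.

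Trimming begins with the glucosidases. *Mogs*, glucosidase I, *Ganab* and *Prkcsh*, the catalytic and accessory subunits of glucosidase II, *Uggt1*, the folding sensor that puts glucose back on misfolded proteins, and *Man1b1*, an ER mannosidase, were all lower, with log2 fold changes from -0.40 to -0.21 and a median of -0.25. *Ganab*, the most abundant of them, had 302, 232 and 266 CPM in *Thy-Tet1*+/+ and 228, 224 and 220 CPM in the libraries labelled *Thy-Tet1*-/-, and the groups did not overlap. *Man1b1* had 90.5, 67.4 and 76.9 CPM against 63.1, 62.1 and 64.5 CPM, also without overlap, and the other 3 overlapped. All 5 were thus lower by amounts short of the limits.

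In the Golgi, *Mgat1* starts the complex branches, *Man2a1* removes the remaining outer mannoses and *Mgat2* adds the branch on the other arm. *Mgat2* (NCBI gene 217664) had 115, 89.7 and 105 CPM in *Thy-Tet1*+/+ and 56.6, 60.0 and 60.4 CPM in the libraries labelled *Thy-Tet1*-/-. The groups did not overlap, and the log2 fold change was -0.81 (SE 0.12), past the limits in 16 of 16 alternatives. *Mgat1* differed little, at 70.8, 67.4 and 71.0 CPM against 64.8, 64.7 and 65.6 CPM, lower without overlap by 0.10 on the log2 scale. *Man2a1* had 155, 140 and 112 CPM against 129, 121 and 154 CPM and overlapped.

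Taking each library in turn, the 38 genes had a median log2 deviation from their own means of 0.17, 0.02 and 0.31 in *Thy-Tet1*+/+ replicates 1, 2 and 3. It was -0.08, -0.14 and -0.17 in the libraries labelled *Thy-Tet1*-/-. Above their own mean were 27, 23 and 33 of the 38 genes in *Thy-Tet1*+/+, compared with 11, 6 and 6 in the other group. In these 38 genes *Thy-Tet1*+/+ replicate 2 was thus nearest to the other group, and it is the library with few parathyroid transcripts. Parathyroid markers summed to 7949, 192 and 31340 CPM in *Thy-Tet1*+/+ replicates 1, 2 and 3. The sums were 10625, 21635 and 11884 CPM in the libraries labelled *Thy-Tet1*-/-, so replicate 1 of *Thy-Tet1*+/+ also lay below that group. The part of parathyroid tissue in these values was not tested.

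Genes of the same pathways outside the list were read from the same fit. These 58 genes were chosen by their role, but with earlier results of these data known, so their counts and p-values are a description. All 58 were tested, 44 had a log2 fold change below 0 and 14 above, and the median was -0.21. Past the limits were 5, all lower (8.62%), against 9.2% of all tested genes in either direction and 3.66% lower. They were *Slc35c1*, past the limits in 15 of 16 alternatives, *Mgat5* and *St6gal1*, in 14 each, *B4galt1*, in 12, and *Edem3*, in 11. None of the 5 was past them with scaling to the 10 follicular cell markers, and all 5 were with *Tshr* left out of those markers. With adjustment over all tested genes, 0 of the 58 had an adjusted p under 0.05 by edgeR or limma-voom, 16 had an unadjusted p under 0.05 by edgeR, and DESeq2 gave 7 with an adjusted p under 0.05. Over all tested genes, edgeR gave 0.113% with an adjusted and 18.9% with an unadjusted p under 0.05, and DESeq2 gave 8.43% with an adjusted p under 0.05, beside 12.1% of the 58.

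*Slc35c1*, the Golgi transporter of GDP-fucose, which is made from GDP-mannose, had 41.2, 41.6 and 49.3 CPM in *Thy-Tet1*+/+ and 24.6, 27.8 and 27.0 CPM in the libraries labelled *Thy-Tet1*-/-, a log2 fold change of -0.73 (SE 0.12, edgeR adjusted p = 0.0805, and 0.000203 to 0.323 across alternatives). The 4 enzymes of GDP-fucose synthesis itself lay between -0.23 and 0.06. *St6gal1*, which caps branches with sialic acid, had 180, 182 and 191 CPM against 136, 98.2 and 112 CPM (log2 fold change -0.67, edgeR adjusted p = 0.10, and 0.0016 to 0.323 across alternatives). *B4galt1*, which adds galactose, had 152, 146 and 112 CPM against 93.0, 80.8 and 91.3 CPM (log2 fold change -0.63, edgeR adjusted p = 0.112, and 0.0060 to 0.351 across alternatives). *Mgat5*, a branching transferase, had 116, 156 and 92.3 CPM against 68.1, 71.0 and 82.4 CPM (log2 fold change -0.72, edgeR adjusted p = 0.144, and 0.0246 to 0.385 across alternatives). Groups did not overlap in any of these 4 genes, whose products work in the Golgi. The 11 Golgi mannosidase, branching and capping genes outside the list had a median of -0.21, with 9 below 0 and 2 above. The 4 Golgi nucleotide sugar transporters had a median of -0.17, with 3 below 0 and 1 above. Without overlap were 4 of the 11 and 1 of the 4, all lower, and the others overlapped between the groups.

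Among ER lectins and disposal factors, 8 of 10 genes were lower, with a median log2 fold change of -0.38. *Edem3*, a mannosidase that marks misfolded glycoproteins for disposal, had 131, 98.6 and 120 CPM in *Thy-Tet1*+/+ and 68.6, 85.8 and 75.4 CPM in the libraries labelled *Thy-Tet1*-/- (log2 fold change -0.60, edgeR adjusted p = 0.116, and 0.0071 to 0.394 across alternatives). *Lman1* and *Mcfd2*, partners in a cargo receptor for glycoproteins, had log2 fold changes of -0.42 and -0.43. *Nus1*, a subunit of the enzyme that makes the dolichol chain, had 129, 125 and 135 CPM against 92.8, 84.0 and 89.8 CPM, lower without overlap by 0.54 on the log2 scale (adjusted p = 0.0856 from edgeR), which is short of the limits. *Tusc3* and *Magt1*, the oxidoreductase subunits that join *Stt3b*, had log2 fold changes of -0.45 and -0.30 without overlap. The other 4 further subunits overlapped between the groups, with *Ostc* at -0.30, *Krtcap2* at -0.20, *Ost4* at 0.01 and *Tmem258* at 0.14. The 8 other users of dolichol-phosphate mannose, which serve GPI anchors, O-mannosylation and C-mannosylation, had a median of 0.0013, with *Pigv* at 0.42 and *Pomt2* at -0.41 as the extremes.

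**Figure D4:**
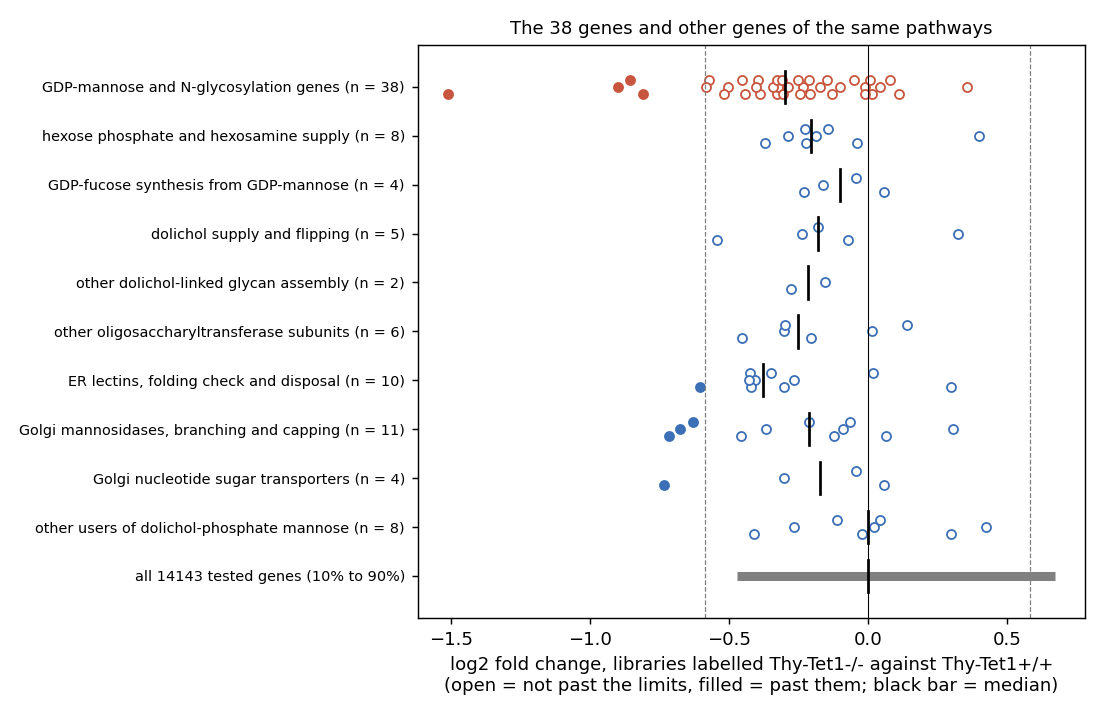
Log2 fold change (x axis, libraries labelled Thy-Tet1-/- against Thy-Tet1+/+) of the 38 genes (red) and of 58 further genes of the same pathways (blue), by role. Filled points are past the limits, black bars are medians, and the grey bar spans the central 80% of the 14143 tested genes, from -0.47 to 0.67; the median is -0.30 for the 38 genes and -0.21 for the 58.

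The ER stress response also raises genes of glycosylation, and 8 of its genes, also listed with earlier results known, were read beside them. Of these, 7 were below 0, with a median log2 fold change of -0.41, and 3 were past the limits, all lower, against 3.66% of all tested genes. *Dnajb9*, an ER chaperone partner, had 361, 257 and 359 CPM in *Thy-Tet1*+/+ and 127, 125 and 135 CPM in the libraries labelled *Thy-Tet1*-/-. *Dnajb9*, *Herpud1* and *Hspa5* were past the limits and lower, with log2 fold changes of -1.33, -1.07 and -0.68 (edgeR adjusted p = 0.0555, 0.0948 and 0.118). *Sdf2l1* (-0.51), *Atf4* (-0.31), *Hsp90b1* (-0.07), *Xbp1* (-0.03) and *Ddit3* (0.13) had overlapping groups. The part of this response in the levels of the 38 genes was not tested.

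Promoters were searched for the ER stress response element, which factors of that response are known to bind. Windows from 250 bases before to 50 after the start, from RefSeq on GRCm38.p6, were given for 34 of the 38 genes, all but *Gmppb*, *Dpagt1*, *Alg2* and *Alg11*. The element, CCAAT and CCACG with 9 bases of any kind between them, read on both strands, was found in 1 of the 34 genes, *Alg12*, in 2 of 43 further pathway genes, *Calr* and *Canx*, and in 2 of 8 ER stress genes, *Hspa5* and *Hsp90b1*. It was found in 0.166% of the 10818 tested genes with a window, and in 0.119% of all promoter windows. The *Alg12* match lies at chr15:88819520-88819538 (gene on the minus strand). The matches of these 5 genes, 2 of them in *Hsp90b1*, follow by gene, read in the direction of the element, with its fixed letters in capitals.
Alg12: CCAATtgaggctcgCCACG
Canx: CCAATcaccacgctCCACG
Calr: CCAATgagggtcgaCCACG
Hspa5: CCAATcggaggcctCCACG
Hsp90b1: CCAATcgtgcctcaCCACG
Hsp90b1: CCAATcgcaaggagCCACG
These 5 genes had log2 fold changes of -0.21, -0.30, -0.42, -0.68 and -0.07. The related element is ATTGG and CCACG with 1 base between them. It was found in *Herpud1* and *Krtcap2* and in none of the 34, against 0.074% of tested genes with a window. The letters TGACGTGG were in none of the 34, against 1.03% of tested genes with a window and 0.676% of all windows. The cyclic AMP element TGACGTCA was in none of the 34, against 3.49% of tested genes with a window and 1.79% of all windows. A match is a match of letters only.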

How the data were processed

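Thyroid RNA from 6 mice, 3 per genotype label, was sequenced from poly(A)-selected, directional libraries. The extraction text speaks of retinas, although thyroid is given as the source. The authors deposited raw counts per gene for 21878 genes, without normalization. The build is mm10 in the submitters' processing notes, and the aligner, the counter and the annotation are not given in the sources used here. The table held 0 further columns of values per library, and 27 symbols turned into dates were restored from their NCBI gene identifiers. The paper describes the control mice as littermates, and each library is taken as 1 mouse.

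Tests were run in R 4.3.3, with edgeR 4.0.16 (filterByExpr, TMM scaling, glmQLFit and glmQLFTest), which tested 14143 genes, with Benjamini-Hochberg adjustment over all of them. Limits were those of the paper, a 1.5-fold difference and a p of 0.05. The paper does not say whether its p was adjusted, and the unadjusted p was taken here. CPM used TMM-scaled totals, and log2 CPM a prior count of 2. A level of 3 counts was 0.150 to 0.338 CPM, for counting error only. Lengths were those of the longest principal transcript in GENCODE M21 (GRCm38), and levels per kilobase depend on that choice. The 38 genes and all lists were chosen with earlier results of these data known. Values were printed for *Gmppb*, for genes past the limits, for partner or paralogue genes and for extremes, and otherwise by role. Alternatives were RLE size factors, DESeq2 1.42.0, limma-voom (limma 3.58.1), other count filters, scaling to follicular cell markers with and without *Tshr* (the latter added after the values were seen), *Tg* left out, a skeletal muscle covariate, a replicate block, and each library left out. The fitting code was tested on simulated counts.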

Additional observations from a re-analysis of the deposited data

How the results depend on the processing

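*Gmppb*, *Alg2* and *Mgat2* were past the limits and lower under all 16 alternatives, and *Pgm3* in 7. Omitting 1 library at a time, 3 to 8 of the 38 genes (7.89% to 21.1%) were past the limits, all lower. Of the 58 further pathway genes 3 to 6 were (5.17% to 10.3%), also all lower. In the same fits 7.48% to 10.4% of all tested genes were past the limits in either direction. The 8 came without *Thy-Tet1*+/+ replicate 2, where the share of all tested genes was 9.04%. The 3 further pathway genes came without *Thy-Tet1*+/+ replicate 1 or 2 or the library labelled *Thy-Tet1*-/- replicate 2. Scaling to 10 follicular cell markers, of which 5 were above 0 and *Tshr* was lowest, raised the median log2 fold change of all tested genes to 0.21. The median of the 38 genes was then -0.09, 3 of them were past the limits, and of the 58 genes 2 were, *Gfpt2* and *Pigv*, both higher. These shares, 7.89% and 3.45%, were below the 12.6% of all tested genes. With that scaling 87.5% of all calls were higher, against 60.2% with TMM. With *Tshr* left out of the markers, an alternative chosen after seeing the data, the median of all genes was -0.01 and 56.6% of calls were higher. Past the limits were then 6 of the 38 (15.8%) and 5 of the 58 (8.62%), all lower, against 8.98% of all tested genes. For *Tet1*, DESeq2 gave 1.31 (adjusted p = 0.0012, the lowest of the 16 alternatives, the highest being 0.353). The sign of 11 of the 38 genes, none with an absolute log2 fold change above 0.17, turned under at least 1 alternative, and 25 were lower in every one. With the replicate number as a block, 1145 of all tested genes, 3 of the 38 and 5 of the 58 were past the limits, against 1301, 4 and 5 without it. Libraries with the same number did not deviate together (r of -0.37 to -0.17 across genes), so the numbers were not taken as pairs. The biological coefficient of variation over all tested genes was 0.327, and 3 libraries per group limit the precision.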
